A study of Mus musculus with 10 samples.

Results

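The replication-dependent histone mRNAs were followed in CGR8 mouse embryonic stem cells with and without 3 inhibitors of translation. The set was defined by gene symbol alone. The listed transcripts were matched by their identifiers to GENCODE release M21 of the GRCm38 genome, and every coding transcript whose symbol begins with Hist1h, Hist2h, Hist3h or Hist4h was taken, which gave 58 of the 14534 listed coding transcripts. Of these, 6 encode linker histone H1, 14 encode H2A, 16 encode H2B, 10 encode H3 and 12 encode H4. They lie in 4 clusters, with 47 genes in the Hist1 cluster on chromosome 13, 8 in the Hist2 cluster on chromosome 3, 2 in the Hist3 cluster on chromosome 11 and 1 Hist4 gene on chromosome 6.

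Ribosome footprints were sequenced from untreated control cells and from cells given 1 µM DMDA-PatA for 10 min, 2 µg/ml harringtonine for 10 min or 0.2 mg/ml puromycin for 20 min. DMDA-PatA is a simplified analog of pateamine A, which acts on the helicase eIF4A, harringtonine stops ribosomes at the start of elongation, and puromycin releases unfinished peptide chains. Each condition had 2 libraries, described as biological replicates, and a further 2 transcriptome libraries were made from RNA of untreated cells. All cells belonged to the 1 line CGR8, of 129 origin, were grown without feeders in the presence of LIF, and were given the same amount of the solvent DMSO. Cycloheximide was not added to the warm cultures but was in the ice-cold washes and in all later steps with the extracts.

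Values are footprints on the annotated coding sequence (ORF), the 5' UTR or the 3' UTR, as scaled by the authors to equal numbers of spike-in RNA reads. The recovered reads on coding ORFs ranged from 618334 to 10614247 in the footprint libraries, and were 16649611 and 38046741 in the transcriptome libraries. The spike-in RNA was added per mass of RNA, so these values are not levels per cell, and in such bulk samples a smaller share of cells with a histone mRNA and less of it per cell cannot be told apart. The scaling of 2 drugs is in doubt, since a table published with the study matches the reads mostly when DMDA-PatA and harringtonine libraries trade size factors. The deposited assignment was used here, and values with the exchange are given where it moves a result. All 10 embryonic stem cell markers examined were listed in the transcriptome, between 379 and 13908 normalized reads (highest in Sall4), with sums of 50638 and 45309 in the replicates. Of 14 markers of other cells 13 were listed, with sums of 220050 and 219420 in the replicates, 2 of them under 10 reads and Col1a1 the highest. The part of such cells in the histone values was not tested.

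Core histones H2A, H2B, H3 and H4 form the octamer around which DNA is wound, and H1 binds the linker DNA. In cycling cells the replication-dependent genes supply these proteins during S phase. Their mRNAs are a known exception to polyadenylation in animals. They end in a short stem-loop that is bound by the stem-loop binding protein Slbp, which takes part in the processing, translation and decay of these mRNAs. Their 5' UTRs are short and the genes have few or no introns. Rapidly dividing embryonic stem cells have a short G1 phase and spend much of their cycle in S phase.

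The stem-loop was searched as 6 bases beginning GG, 4 loop bases and the reverse complement of the first 6, within 120 nt after the stop codon, in the RefSeq genome sequence (GRCm38.p6). It was present in 55 of the 58 histone genes (94.8%) and in 43 of 10351 other listed coding transcripts (0.415%). It began between 22 and 56 nt after the stop codon, and was not found in Hist1h2an, Hist1h2bp and Hist2h2be. An AATAAA polyadenylation signal within 200 nt was present in 4 of the 58 genes. The form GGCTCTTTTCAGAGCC was carried by 32 genes of H1, H2A, H2B and H3, while 7 of 12 H4 genes carried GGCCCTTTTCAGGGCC, and no H4 gene carried the former. One gene for each of 4 forms is shown, with the 16 bases of the stem-loop in capitals, 5' to 3' on the strand of the gene.
Hist1h1a (chr13:23764387-23764412, plus strand): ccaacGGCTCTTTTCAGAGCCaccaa
Hist1h2bk (chr13:22036295-22036320, plus strand): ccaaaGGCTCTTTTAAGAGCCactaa
Hist1h3g (chr13:23535884-23535909, plus strand): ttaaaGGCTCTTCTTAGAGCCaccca
Hist1h4h (chr13:23531453-23531478, plus strand): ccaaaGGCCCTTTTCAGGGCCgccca

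The listed 5' UTRs of these genes ranged from 0 to 433 nt. All 58 ORFs began with ATG, and 16 of them had a listed 5' UTR of up to 7 nt, which left no 5' UTR value because the authors removed the last 10 nt before the start codon. Start codon contexts of genes whose 5' UTR footprints differ most in the results are shown with the ATG in capitals. Hist1h1a, Hist1h2ab, Hist1h2bg and Hist1h4b gained 5' UTR footprints with DMDA-PatA, Hist1h2ae and Hist1h4a did not pass that test, and Hist1h2bq and Hist1h2br are shown because their sequences here are identical.
Hist1h1a (chr13:23763697-23763726, plus strand): ttgtttattcatcagcaaccATGtcggaga
Hist1h2ab (chr13:23751113-23751142, plus strand): actgatacttaaacgcatacATGtctggac
Hist1h2bg (chr13:23571413-23571442, plus strand): ctttgttgcttgtttctaccATGcccgagc
Hist1h4b (chr13:23757001-23757030, plus strand): aagcttgtaagaatttaactATGtctggtc
Hist1h2ae (chr13:23571099-23571128, minus strand): tttcctaccttcttgcgtcaATGtctggac
Hist1h4a (chr13:23761148-23761177, minus strand): ttttccattcttcctaagacATGtcgggtc
Hist1h2bq (chr13:21810162-21810191, minus strand): tccagagttccagtctcatcATGcctgagc
Hist1h2br (chr13:21833751-21833780, plus strand): tccagagttccagtctcatcATGcctgagc

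The histone genes are near-identical copies, and the authors discarded reads that matched more than 1 place in the genome, so for most ORFs only a part could be counted. Every 30-nt window of each single-exon ORF was therefore looked up in the whole genome on both strands. A median of 22.2% of the windows of an ORF were unique (range 0 to 100%, 57 genes). H1 had the most, with a median of 83.7%, followed by H4 with 28.2%, H2A with 17.7%, H3 with 17.65% and H2B with 15.6%. Windows over the start codon were more distinct and were all unique in 51 of the 58 genes. Only 14 of 57 genes had more than 50% unique windows, and 4 genes, Hist1h2bq, Hist1h2br, Hist2h3c1 and Hist2h3c2, had none. Hist1h2bq and Hist1h2br nevertheless had mean control footprints of 592 and 173. The level of a histone gene can thus be too low, or too high where a read was placed on the wrong copy, and levels of different histone genes are uncertain against each other.

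**Figure D1:**
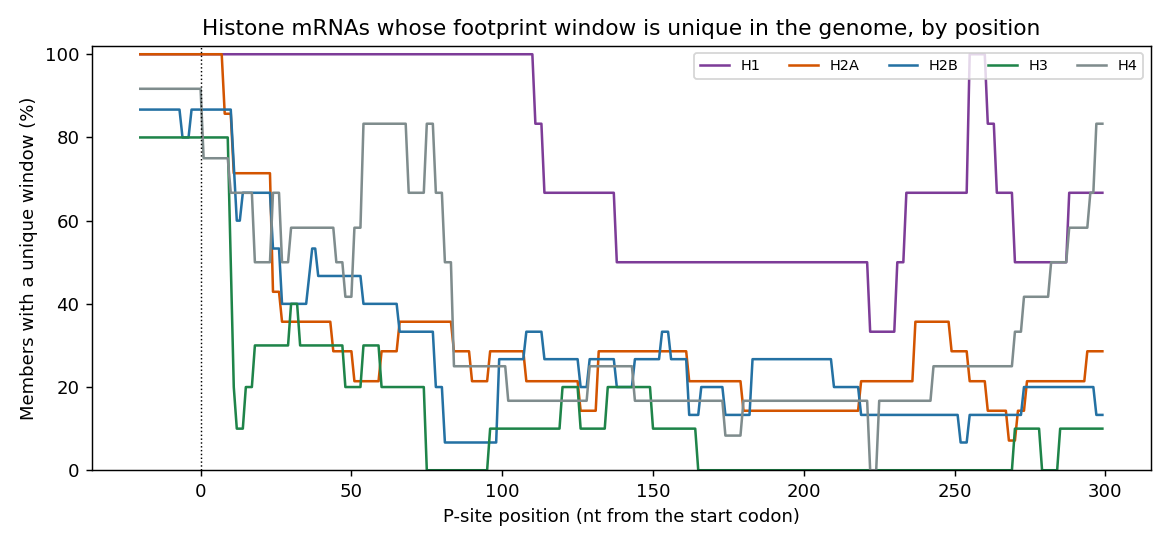
Share of histone genes (percent, vertical axis) whose 30-nt window was unique in the genome, by the P-site position in nt from the start codon (horizontal axis, from 20 nt upstream), with 1 line per class. Each window starts 12 nt upstream of that position. Windows near the start codon were unique in most genes of every class, and beyond 30 nt into the ORF the share was between 33.3% and 100% in H1, 0% and 83.3% in H4, 6.67% and 53.3% in H2B, 7.14% and 35.7% in H2A, and 0% and 40% in H3.

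In untreated cells the histone genes took 2.20% and 2.07% of the coding ORF footprints in the control libraries and 0.433% and 0.420% of the coding ORF reads in the transcriptome libraries. Per kb of ORF, their median transcriptome level was 1157 normalized reads, against 400 for all listed coding transcripts. H1 had the highest class median at 13361 reads per kb, followed by H4 at 1318, H2B at 1160, H2A at 811 and H3 at 620. Control footprints per kb had class medians of 14457 in H1, 11793 in H4, 2935 in H2A, 2142 in H3 and 1224 in H2B. The ranges within every class overlapped those of the others on both scales.

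Control footprints relative to transcriptome reads, each scaled to the typical coding sequence by TMM factors, were higher in 52 of 55 histone genes tested, where 34% of all coding sequences tested were higher. They were lower in 2 (Hist1h2ai and Hist1h2bn), where 36.4% of all were lower, and Hist1h4j did not pass the test. The median log2 ratio was 2.84 in the histone genes and -0.04 over all 14017 tested. Class medians were 4.03 in H3, 3.79 in H4, 2.74 in H2A, 2.40 in H2B and 1.67 in H1. The highest ratio of a gene with transcriptome reads was that of Hist1h2bc, at 9.43 ± 0.40 (SE; edgeR adjusted p = 2.27e-10), with 7926 and 3154 control footprints on 24.7 and 19.5 transcriptome reads. Of the 3 leading genes of H4 the highest was Hist1h4h, at 6.03 ± 0.20 (adjusted p = 3.85e-11), with 11201 and 9021 control footprints on 302 and 512 transcriptome reads. The lowest was Hist1h2ai at -3.59 ± 0.36 (adjusted p = 6.31e-07), with 27.1 and 3.63 control footprints on 444 and 478 transcriptome reads. Hist1h4n and Hist1h4m were listed at 0 on the ORF in both transcriptome libraries. Hist1h4n nevertheless had 2763 and 1808 control footprints there and 373 and 288 transcriptome reads on its 5' UTR. No ratio is printed for either gene, but both were tested and are among the 52 called higher. They also enter the medians above. The 5' UTR of Hist1h2bc likewise had 532 and 370 transcriptome reads, and only 6.88% of its ORF windows were unique. The part that the repeated sequence plays in these ratios was not tested.

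DMDA-PatA lowered ORF footprints of the histone genes, but by less than those of most mRNAs. Of the 56 genes that reached 10 reads in 2 or more libraries, 52 fell, none rose and 4 did not pass the test (Hist1h2ai, Hist1h2bn, Hist2h2be and Hist1h4m). Among all 12499 ORFs tested 99.3% fell and 0.056% rose, so the count itself does not set the histones apart. The median log2 fold change was -1.92 in the histone genes and -4.32 over all tested ORFs. Scaled to the typical coding sequence (TMM factors), where the median of all tested ORFs was -0.12, the direction turned, with 54 histone genes higher and none lower and class medians from 1.41 in H1 to 2.59 in H3. All directions that follow are relative to spike-in reads unless stated. Both DMDA-PatA libraries lay below both controls in 53 of 58 histone genes, where 96.7% of all coding ORFs with a footprint did so. Hist2h3c1 and Hist2h3c2 were at 0 in all 8 footprint libraries.

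Harringtonine and puromycin moved histone ORF footprints in both directions. With harringtonine 14 of 56 rose and 17 fell, while 0.512% of all tested ORFs rose and 92.9% fell. With puromycin 14 rose and 9 fell, against 0.352% and 90.1% of all. The median log2 fold change of the histone genes was 0.22 with harringtonine and 0.44 with puromycin, compared with -2.97 and -2.48 over all tested ORFs. With TMM factors 50 were higher and 3 lower with harringtonine and 55 higher and none lower with puromycin. The counts relative to spike-in reads leaned on single libraries. The harringtonine count of 14 became 7 without control replicate 2, and the puromycin counts of 14 higher and 9 lower became 3 and 2 without control replicate 2, 9 and 1 without control replicate 1, 4 and 4 without puromycin replicate 2, and 10 and 1 without puromycin replicate 1. When the DMDA-PatA and harringtonine libraries traded size factors, 24 rose and 13 fell with puromycin, and 15 rose and 21 fell with harringtonine. All 3 drugs were compared with the same 2 control libraries. The ORF value does not separate the start codon from the rest. In Hist1h2ad and Hist1h2bc, for example, 3.06% and 4.02% of windows after codon 10 were unique, against 100% over the start codon. The paper reports ribosome stalling at the start codon of many histone mRNAs and a low sensitivity of some of them to DMDA-PatA. It proposes that both might stem from initiation near the AUG without scanning of the 5' UTR. It also reports frequent start codon pileups in transcripts that harringtonine and puromycin affect weakly. Both drugs gave more start codon footprints in part of the coding mRNAs there. Whether the changes here lie at the start codon was not tested.

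**Figure D2:**
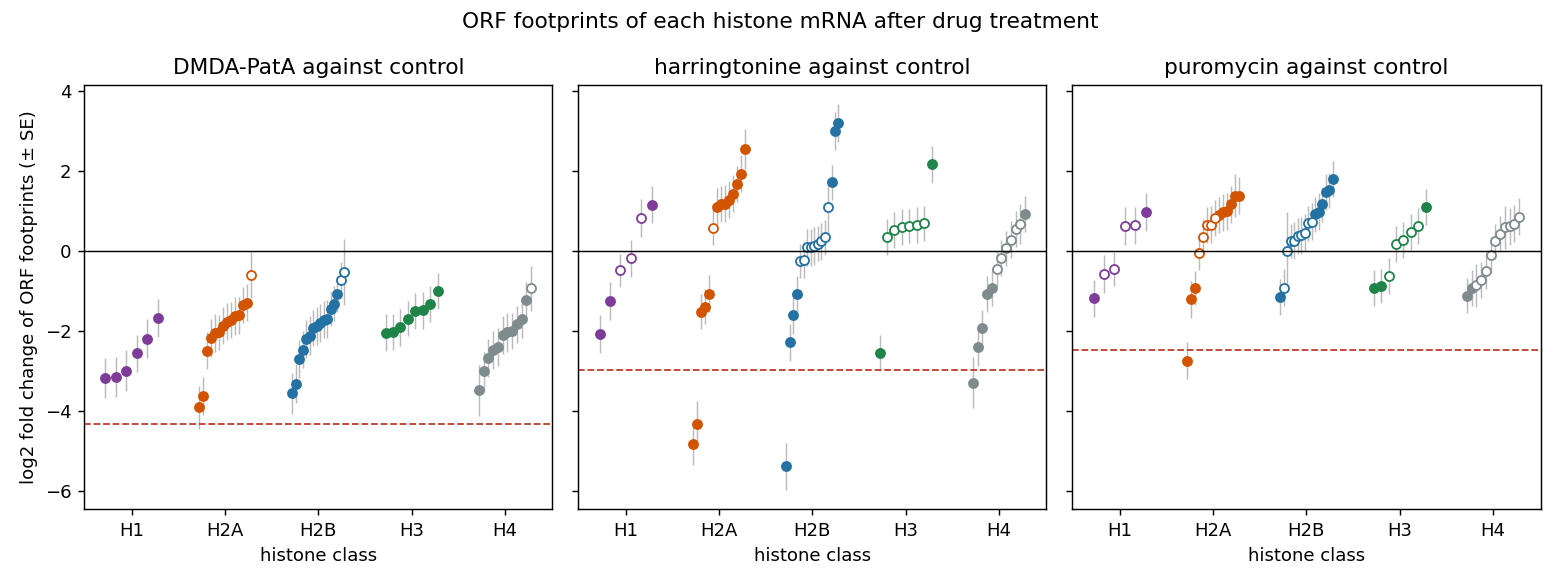
Log2 fold change of ORF footprints against control for each tested histone gene (vertical axis), by class (horizontal axis) and drug (panels). Filled points passed the test at an adjusted p of 0.05 and open points did not. Bars are standard errors, and the dashed red line is the median of all tested ORFs. Histone genes lie above that line with every drug, except Hist1h2af, Hist1h2an, Hist1h2bl and Hist1h4j with harringtonine and Hist1h2af with puromycin.

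The linker histone genes had the largest class decrease with DMDA-PatA, with 6 of 6 lower and a median log2 fold change of -2.77. The most abundant, Hist1h1a (chr13:23763666-23764406, plus strand), had 27986 and 28136 control footprints, 2200 and 4148 under DMDA-PatA, 16066 and 7365 under harringtonine and 15840 and 21922 under puromycin. All 6 treated libraries were below both controls. The log2 fold change was -3.14 ± 0.51 (SE) with DMDA-PatA (adjusted p = 6.77e-10), -1.26 ± 0.47 with harringtonine (adjusted p = 0.00868) and -0.57 ± 0.47 with puromycin (adjusted p = 0.233). The harringtonine call was lost without control replicate 1 (log2 fold change -1.26), without control replicate 2 (-1.26) or without harringtonine replicate 2 (-0.80).

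Hist1h1b, which gives another somatic H1 subtype (chr13:21779883-21780625, minus strand), had 16529 and 22202 control footprints, 1603 and 3286 under DMDA-PatA, 18139 and 15869 under harringtonine and 27340 and 32237 under puromycin. It fell with DMDA-PatA (log2 fold change -2.99 ± 0.50, adjusted p = 3.85e-09) and did not pass the test with harringtonine (-0.19 ± 0.47, adjusted p = 0.697) or puromycin (0.62 ± 0.47, adjusted p = 0.195), although both puromycin values lay above both controls. Hist1h1d had 9966 and 10453 control footprints, 1648 and 2810 under DMDA-PatA, 23303 and 12768 under harringtonine and 13903 and 17973 under puromycin. Its harringtonine and puromycin values all exceeded the controls without passing the test (0.82 ± 0.47 and 0.64 ± 0.47, adjusted p = 0.0831 and 0.177), and the harringtonine change passed only without harringtonine replicate 2 (1.19). With DMDA-PatA it fell by 2.20 on the log2 scale (SE 0.48, adjusted p = 6.27e-06).

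Of the H2A genes 13 of 14 fell with DMDA-PatA (median log2 fold change -1.82), with harringtonine 8 rose and 5 fell (median 1.14), and with puromycin 6 rose and 3 fell (median 0.74). Hist3h2a, the H2A gene of the small cluster on chromosome 11 (chr11:58954685-58956830, plus strand), had 5020 and 5247 control footprints, 839 and 1630 under DMDA-PatA, 3747 and 1147 under harringtonine and 9748 and 10711 under puromycin. It was lower than both controls with DMDA-PatA and harringtonine and higher with puromycin. Log2 fold changes were -2.06 ± 0.47 (adjusted p = 1.48e-05), -1.07 ± 0.46 (adjusted p = 0.022) and 0.99 ± 0.46 (adjusted p = 0.0342). The harringtonine call was lost without control replicate 1 (-1.10), control replicate 2 (-1.04) or harringtonine replicate 2 (-0.45), and the puromycin call without control replicate 1 (0.96), control replicate 2 (1.03), puromycin replicate 1 (1.06) or puromycin replicate 2 (0.93).

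Hist1h2ak (chr13:21753435-21753827, minus strand) had 2895 and 5737 control footprints, 854 and 1946 under DMDA-PatA, 11719 and 6757 under harringtonine and 8030 and 11337 under puromycin. All treated values were outside the range of the controls. The gene fell with DMDA-PatA (log2 fold change -1.62 ± 0.47, adjusted p = 0.000552) and rose with harringtonine (1.10 ± 0.46, adjusted p = 0.0194) and puromycin (1.17 ± 0.46, adjusted p = 0.014). The DMDA-PatA call was lost without control replicate 2 (-1.05), the harringtonine call without control replicate 1 (0.69) or harringtonine replicate 1 (0.65), and the puromycin call without control replicate 1 (0.76) or puromycin replicate 2 (0.90).

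Hist1h2ab (chr13:23751126-23751598, plus strand) had unequal controls, with 3698 and 818 footprints. It had 775 and 1062 footprints with DMDA-PatA, 9987 and 7250 under harringtonine and 3038 and 4090 under puromycin. Only the harringtonine values lay clear of both controls. The log2 fold change with DMDA-PatA was -1.30 ± 0.46 (adjusted p = 0.00499), but 0.17 without control replicate 1 and -1.09, no longer called, without DMDA-PatA replicate 1. With harringtonine it rose by 1.93 ± 0.47 (adjusted p = 4.92e-05), a call lost without control replicate 2 (1.22). With puromycin the change was 0.66 ± 0.46 (adjusted p = 0.157), 2.12 and called without control replicate 1, and -0.05 without control replicate 2. Such unequal controls were more common in this class. The median ratio of control replicate 2 to replicate 1 was 0.645 in H2A and 0.787 over all histone genes, compared with 0.895 in other coding sequences, and Hist1h2ah had the lowest, with 2418 and 237 control footprints.

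Of the H2B genes 14 of 16 fell with DMDA-PatA (median log2 fold change -1.84), 3 rose and 4 fell with harringtonine (median 0.10), and 6 rose and 1 fell with puromycin (median 0.57). Hist2h2bb (chr3:96269752-96270132, plus strand), which came after Hist1h1a in transcriptome reads per kb (37938 against 46059), had 19250 and 17963 control footprints, 1243 and 1922 under DMDA-PatA, 7992 and 4270 under harringtonine and 9217 and 10502 under puromycin. All 6 treated values were below both controls. Log2 fold changes were -3.56 ± 0.51 (adjusted p = 4.69e-12), -1.60 ± 0.47 (adjusted p = 0.00083) and -0.92 ± 0.46 (adjusted p = 0.0538), the last of which was called without any 1 of the DMDA-PatA or harringtonine libraries at the same fold change of -0.92.

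Hist1h2bk (chr13:22035870-22036345, plus strand) and Hist1h2bg (chr13:23571396-23572013, plus strand) fell with DMDA-PatA alone. Hist1h2bk had 17799 and 13712 control footprints, 2314 and 4943 under DMDA-PatA, 21666 and 12640 under harringtonine and 17412 and 23894 under puromycin. Hist1h2bg had 13564 and 9040 control footprints, 2741 and 4231 under DMDA-PatA, 18830 and 7968 under harringtonine and 12401 and 18656 under puromycin. In both genes the harringtonine and puromycin values overlapped the controls. Their DMDA-PatA log2 fold changes were -2.12 ± 0.49 (adjusted p = 1.34e-05) and -1.70 ± 0.48 (adjusted p = 0.000372), and with the other drugs they ranged from 0.12 to 0.46 (adjusted p from 0.335 to 0.798).

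All 8 tested H3 genes fell with DMDA-PatA, with the smallest class median of -1.59. With harringtonine 1 rose and 1 fell (median 0.61), and with puromycin 1 rose and 2 fell (median 0.23). Hist1h3b (chr13:23752267-23752886, plus strand) had 4802 and 2661 control footprints, 972 and 1019 under DMDA-PatA, 8424 and 3261 under harringtonine and 2223 and 2611 under puromycin. Hist1h3c had 2943 and 3582 in the controls, 714 and 1625 under DMDA-PatA, 5149 and 3175 under harringtonine and 4328 and 5676 under puromycin. Hist1h3g had 2594 and 2145 in the controls, 825 and 1063 under DMDA-PatA, 4940 and 1844 under harringtonine and 3108 and 3512 under puromycin. In all 3 genes the DMDA-PatA values were below both controls and the harringtonine values overlapped them. The DMDA-PatA log2 fold changes were -1.91 ± 0.47 (adjusted p = 4.74e-05) for Hist1h3b, -1.48 ± 0.46 (adjusted p = 0.00137) for Hist1h3c and -1.33 ± 0.46 (adjusted p = 0.00375) for Hist1h3g. The call for Hist1h3c was lost without DMDA-PatA replicate 1 (-1.01) and that for Hist1h3g without control replicate 1 (-1.18). None of the 3 passed the test with harringtonine (0.35 to 0.65) or puromycin (-0.63 to 0.62), except that without harringtonine replicate 2 Hist1h3b (1.18) and Hist1h3g (1.06) were called higher with harringtonine.

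Of the H4 genes 11 of 12 fell with DMDA-PatA (median log2 fold change -2.06), 1 rose and 5 fell with harringtonine (median -0.31), and 2 fell with puromycin (median 0.07). Hist1h4h (chr13:23531050-23531519, plus strand) had 11201 and 9021 control footprints, 1773 and 3164 under DMDA-PatA, 11555 and 13016 under harringtonine and 13754 and 17211 under puromycin. Its log2 fold change was -2.03 ± 0.48 with DMDA-PatA (adjusted p = 2.4e-05), 0.28 ± 0.46 with harringtonine (adjusted p = 0.553) and 0.61 ± 0.46 with puromycin (adjusted p = 0.195). Hist1h4d (chr13:23581598-23582735, plus strand) was lower with every drug, with 6644 and 4569 control footprints, 473 and 925 under DMDA-PatA, 951 and 1188 under harringtonine and 2769 and 3145 under puromycin. All 6 of its treated values were below both controls. Its log2 fold changes were -3.0 ± 0.48 (DMDA-PatA, adjusted p = 7.46e-10), -2.39 ± 0.47 (harringtonine, adjusted p = 6.83e-07) and -0.92 ± 0.45 (puromycin, adjusted p = 0.0463). Its puromycin call was lost without control replicate 1 (-0.63), control replicate 2 (-1.17), puromycin replicate 1 (-0.83) or puromycin replicate 2 (-1.02). Hist1h4a had 5878 and 3790 control footprints, 866 and 1403 under DMDA-PatA, 4443 and 4151 under harringtonine and 4055 and 5004 under puromycin, and fell only with DMDA-PatA (-2.09 ± 0.47, adjusted p = 9.67e-06).

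**Figure D3:**
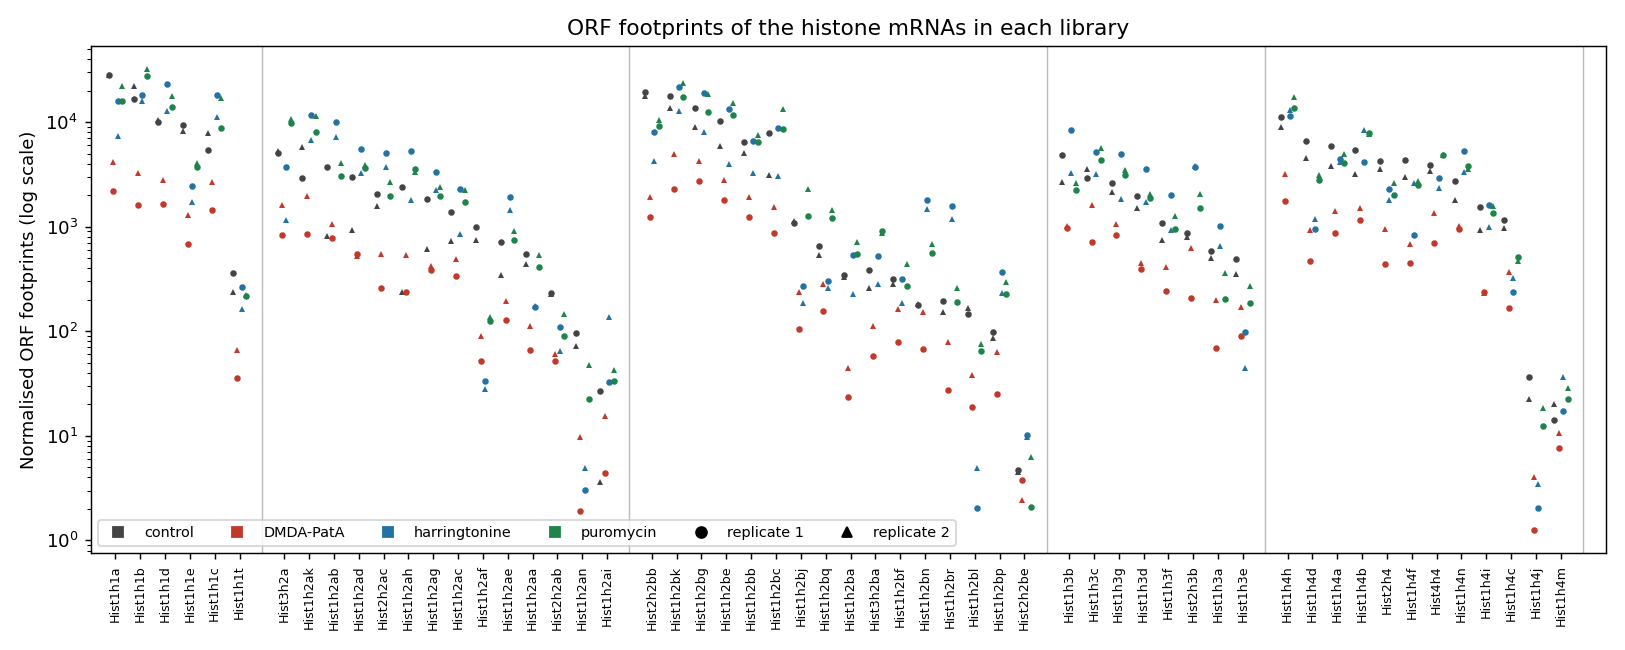
ORF footprints (normalized to spike-in reads, log10 axis) of the 56 histone genes with control footprints, by class and in order of their control mean, in each of the 8 footprint libraries. Colours mark the conditions, circles replicate 1 and triangles replicate 2. DMDA-PatA points lie below both control points in 53 genes, and not in Hist1h2ab, Hist1h2ah and Hist1h2ai, whose 2 control points lie far apart.

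The fold inhibition, which is the control mean divided by the mean with the drug, had no test and is given with the SD of the 2 same-numbered pairs (n = 2). Over 43 histone genes with at least 100 transcriptome reads and 100 control footprints the median was 3.99 ± 2.56 in the DMDA-PatA libraries, 0.877 ± 0.217 after harringtonine and 0.748 ± 0.303 after puromycin. In 1073 other coding sequences of the same ORF length range (309 to 669 nt) it was 16.2 ± 7.31, 4.01 ± 1.35 and 3.05 ± 0.155. The upper part of this range comes from H1 (627 to 669 nt), while the core histone ORFs have 309 to 414 nt. The paper reports a weaker block of shorter coding sequences with harringtonine and above all with puromycin. The part of ORF length in these differences was not tested. By class the DMDA-PatA medians were 6.89 ± 3.57 in H1, 4.26 ± 2.79 in H4, 3.68 ± 3.02 in H2B, 3.35 ± 2.46 in H2A and 3.22 ± 1.93 in H3. In every class the median of pair 1 was above that of pair 2, as it was over all well expressed coding sequences (29.3 and 17.8). This SD therefore also holds a shift common to the classes and does not measure the difference between them. The pairs go by replicate number alone, and same-numbered libraries did not deviate together. The class order was the same in both pairs, at 10.1, 6.79, 6.60, 5.81 and 4.94 in pair 1 and 5.07, 2.85, 2.33, 2.32 and 2.20 in pair 2. In pair 2 H2B, H2A and H3 were nearly equal. Differences between classes were not tested. Without DMDA-PatA replicate 2 the median was 5.31 in H2A and 5.53 in H2B. With the exchanged size factors the histone median was 3.4 for DMDA-PatA and 1.12 for harringtonine, on the other side of 1. Among genes with over 50% unique windows the harringtonine median was 1.65. Only 2 H2B genes were among them, Hist1h2ba with a DMDA-PatA fold inhibition of 9.87 and Hist2h2bb with 11.8. Both values exceed the H1 median of 6.89, so the class order did not hold among these genes.

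The largest decrease with each drug was in Hist1h2an, Hist1h2bl or Hist1h2af, which had fewer control footprints than the leading genes of their classes. Hist2h2bb, with 19250 and 17963 control footprints, fell almost as much as Hist1h2af with DMDA-PatA (-3.56). Hist1h2an, 1 of the 3 genes in which no stem-loop was found, had 96.7 and 71.6 control footprints, 1.89 and 9.74 under DMDA-PatA, 3.04 and 4.90 under harringtonine and 22.7 and 47.3 under puromycin. It had the largest decrease with DMDA-PatA (log2 fold change -3.90 ± 0.54, adjusted p = 1.01e-12). With puromycin it fell by 1.21 on the log2 scale (SE 0.47, adjusted p = 0.0116), a call lost without control replicate 1 (-0.99) or puromycin replicate 1 (-0.83). Hist1h2af had 991 and 750 control footprints, 52.4 and 90.1 under DMDA-PatA, 33.5 and 28.0 under harringtonine and 124 and 136 under puromycin. It fell with every drug, with log2 fold changes of -3.61 ± 0.47 (adjusted p = 3.58e-14), -4.82 ± 0.51 (adjusted p = 1.11e-19) and -2.74 ± 0.46 (adjusted p = 7.71e-09). Hist1h2bl had the largest decrease with harringtonine (-5.38 ± 0.59, adjusted p = 2.28e-18), from 146 and 168 footprints to 2.03 and 4.90.

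At the other end, Hist1h2bn rose most with harringtonine (log2 fold change 3.19 ± 0.48) and with puromycin (1.80 ± 0.46), and its DMDA-PatA change of -0.72 ± 0.45 (adjusted p = 0.113) was called without DMDA-PatA replicate 2 (-1.41) or without either harringtonine library (-0.72). Hist1h2br had 195 and 152 control footprints and 1575 and 1186 under harringtonine (2.99 ± 0.47, adjusted p = 3.59e-10). Its ORF had no unique 30-nt window, so these reads cannot be placed with certainty on this copy. Hist1h2bp had 97.8 and 86.1 control footprints and 227 and 296 under puromycin (1.51 ± 0.44, adjusted p = 0.000791). Hist2h2be had 4.72 and 4.53 control footprints and 3.79 and 2.44 under DMDA-PatA, a change of -0.52 ± 0.82 (adjusted p = 0.528) on a handful of reads.

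The listed 5' UTR length went along with the harringtonine values. Of 16 tested histone genes with a listed 5' UTR of up to 7 nt, 12 fell and 2 rose (median log2 fold change -1.56, range -5.38 to 3.19). Of 40 with a longer listed 5' UTR, 5 fell and 12 rose (median 0.57). With puromycin 7 of the 16 fell and 3 rose (median -0.80), and 2 of the 40 fell and 11 rose (median 0.62). With DMDA-PatA 15 of the 16 fell (median -2.48) and 37 of the 40 fell (median -1.84). Other coding sequences of 309 to 669 nt had harringtonine medians of -2.41 with a listed 5' UTR of up to 7 nt (26 sequences) and -1.92 with a longer one (1752 sequences). This grouping was made after values had been seen and was given no test. Hist1h2aa, Hist1h2an, Hist1h2ba, Hist1h2bl, Hist1h2bn, Hist1h2br and Hist2h2bb are listed with a 5' UTR of 0 nt. Their M21 transcripts hold only the coding sequence and stop codon. For these genes the listed length reflects a gene model without UTRs and gives no length of the mRNA's 5' UTR. Whether the listed length of the other genes is that of the real mRNA was not tested. The share of unique windows also went along with these values. The 14 genes with over 50% unique windows had medians of -0.71 for harringtonine, -0.03 for puromycin and -2.48 for DMDA-PatA, and the 41 others had 0.35, 0.48 and -1.80. In the 9 genes with both over 50% unique windows and a listed 5' UTR of more than 7 nt, 1 rose and 3 fell with harringtonine, and the median was -0.45, opposite in sign to the 0.57 of all genes with a longer listed 5' UTR.

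**Figure D4:**
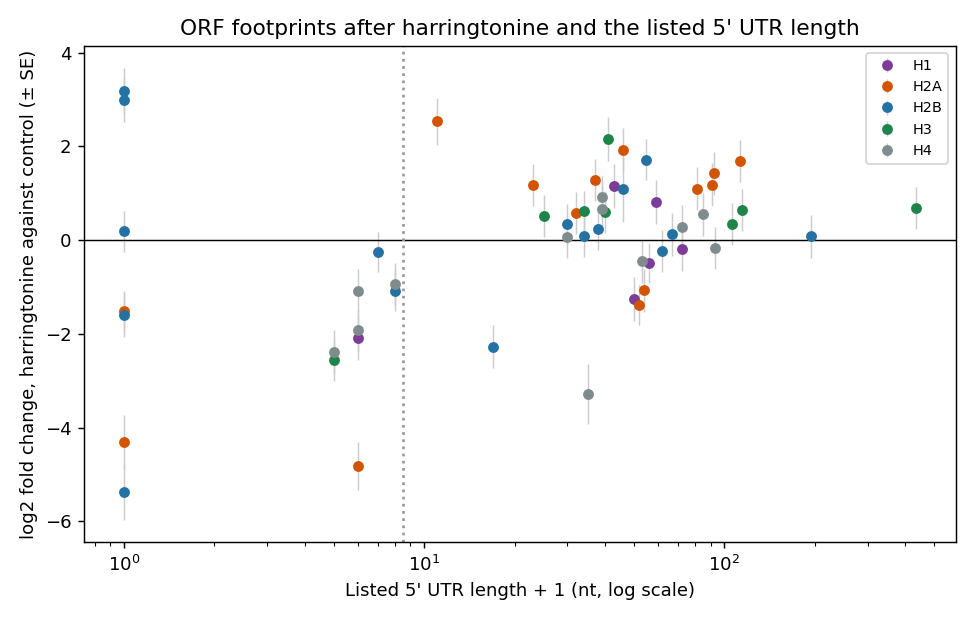
Log2 fold change of ORF footprints with harringtonine against control (vertical axis) by the listed 5' UTR length plus 1 in nt (logarithmic horizontal axis) for each tested histone gene, with the classes in separate colours and bars for standard errors. The dotted line separates the 16 genes with a listed 5' UTR of up to 7 nt, which had a median of -1.56, from the 40 others, which had a median of 0.57. Several of the 16 are gene models without any UTR.

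To ask how the histone genes moved relative to other mRNAs, the ORF reads scaled to the typical coding sequence were tested in the same way. Relative to it, 54 of 56 histone genes were higher with DMDA-PatA and none lower, where 18.8% of all tested ORFs were higher and 23.6% lower. With harringtonine 50 were higher and 3 lower (26.6% and 30% of all), and with puromycin 55 were higher and none lower (24.3% and 24.9% of all). The medians were 2.31, 3.01 and 2.90 on the log2 scale. The 3 that were lower with harringtonine were Hist1h2bl, Hist1h2af and Hist1h2an, and Hist1h2an did not pass the test with DMDA-PatA. The same share is seen in the reads themselves. Histone genes took 8.62% and 9.49% of the coding ORF reads with DMDA-PatA, 13.9% and 14.6% under harringtonine and 13% and 15.5% under puromycin, and all 6 values lie above the control values of 2.20% and 2.07%.

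The drugs were also compared with each other in the same fit, although their doses, times and modes of action differ. ORF footprints were lower with DMDA-PatA than with harringtonine in 44 of 56 histone genes and higher in 2, where 52.8% of all tested ORFs were lower and 0.432% higher. The 2 that were higher were Hist1h2bl and Hist1h2af. They were lower with DMDA-PatA than with puromycin in 52 and higher in none, where 67.4% of all were lower and 0.432% higher. Between harringtonine and puromycin, 4 histone genes (Hist1h2bn, Hist1h2br, Hist1h3a and Hist1h3b) were higher with harringtonine and 10 were lower, against 1.2% and 9.94% of all. With TMM factors the counts were 30 lower and 7 higher for DMDA-PatA against harringtonine, 22 lower and 4 higher for DMDA-PatA against puromycin, and 13 higher and 11 lower for harringtonine against puromycin. The last comparison, with 4 higher and 10 lower, also leaned on single libraries, with 1 and 7 without either control library, 1 and 8 without puromycin replicate 1, 1 and 4 without puromycin replicate 2, 6 and 21 without harringtonine replicate 1, and 7 and 11 without harringtonine replicate 2. The 2 genes higher with DMDA-PatA than with harringtonine became 1 without either control library or DMDA-PatA replicate 2, and 3 without DMDA-PatA replicate 1 or harringtonine replicate 1. The median log2 differences were -2.01, -2.25 and -0.27 in the histone genes and -1.36, -1.78 and -0.40 over all tested ORFs.

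The 5' UTR, unlike the ORF, had more footprints with DMDA-PatA in many histone genes. A 5' UTR value was present for 42 of the 58 genes. Of these, 27 had both DMDA-PatA libraries above both controls and 1 had both below, where 21.8% and 33.6% of the 11978 coding transcripts with a 5' UTR footprint did so. In 7 genes no 5' UTR footprint was found in any of the 8 libraries. With harringtonine 19 of the 42 lay above both controls (45% of all) and none below (11.1%), and with puromycin 16 lay above (19.2%) and 1 below (16.6%). The summed 5' UTR footprints of the 42 genes were 849 and 638 in the controls, 9843 and 10872 under DMDA-PatA, 2544 and 1571 under harringtonine and 1334 and 1777 under puromycin. Hist1h2ab contributed 41.0% and 37.2% of the DMDA-PatA sums, and without it the sums were 449 and 402 in the controls and 5804 and 6828 under DMDA-PatA.

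Only 23 of the 42 had the 10 reads in 2 libraries needed for the test. For 7 of them (Hist1h2ad, Hist1h2ak, Hist1h2bc, Hist1h3a, Hist1h3b, Hist1h4a and Hist4h4) this held only with the DMDA-PatA libraries, so counts over all 23 carry no weight of their own. Of the 23, 21 rose with DMDA-PatA (14.7% of all tested rose and 29% fell), 10 rose with harringtonine (35.1% and 5.21%) and 1, Hist3h2a, rose with puromycin (0.557% and 0.406%). None fell. Among the 16 that reached the limit without the DMDA-PatA libraries, 15 rose with DMDA-PatA. Among the 7 genes with at least 10 reads in both controls, 6 rose with DMDA-PatA, 4 with harringtonine and none with puromycin. The harringtonine count of 10 became 6 without control replicate 1, 2 without control replicate 2 and 5 without harringtonine replicate 1. The puromycin count of 1 became 0 without control replicate 1 or puromycin replicate 2, and 2 without any 1 of the DMDA-PatA or harringtonine libraries.

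Hist1h2ab had the most 5' UTR footprints, with 400 and 236 in the controls, 4039 and 4045 under DMDA-PatA, 678 and 480 under harringtonine and 443 and 650 under puromycin. Its DMDA-PatA increase was 3.67 ± 0.47 on the log2 scale (adjusted p = 1.32e-12), while its ORF footprints were not clear of the controls. Hist1h1a had 7.07 and 24.5 5' UTR footprints in the controls and 480 and 1118 under DMDA-PatA, an increase of 5.61 ± 0.56 (adjusted p = 1.73e-20) in a gene whose ORF footprints fell by 3.14. The H1 gene Hist1h1c had 63.7 and 59.8 in the controls, 1145 and 1455 under DMDA-PatA and 209 and 157 under harringtonine, and rose with both (4.39 ± 0.51, adjusted p = 1.11e-15, and 1.56 ± 0.46, adjusted p = 0.00345). In Hist1h1b the change was smaller, from 54.2 and 75.2 to 246 and 410 under DMDA-PatA (2.33 ± 0.47, adjusted p = 1.01e-05).

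The H2B genes Hist1h2bg and Hist1h2bk both gained 5' UTR footprints under DMDA-PatA and also under harringtonine. Hist1h2bg had 8.25 and 4.53 5' UTR footprints in the controls, 664 and 564 under DMDA-PatA, 49.7 and 18.9 under harringtonine and 20.7 and 16.2 under puromycin. Hist1h2bk had 20.0 and 23.6 in the controls, 595 and 575 under DMDA-PatA, 639 and 430 under harringtonine and 80.6 and 44.8 under puromycin. All treated libraries exceeded both controls in both genes. The log2 increases with DMDA-PatA and harringtonine were 6.60 ± 0.61 (adjusted p = 5.69e-23) and 2.41 ± 0.61 (adjusted p = 0.00055) in Hist1h2bg, and 4.73 ± 0.53 (adjusted p = 2.62e-16) and 4.60 ± 0.53 (adjusted p = 5e-15) in Hist1h2bk.

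In the H3 and H4 classes Hist1h3b had 4.72 and 4.53 5' UTR footprints in the controls and 169 and 131 under DMDA-PatA, which alone brought it into the test, and Hist1h4b had 4.72 and 9.06 in the controls and 508 and 503 under DMDA-PatA (6.14 ± 0.60, adjusted p = 4.87e-21). Some genes with 5' UTR transcriptome reads did not show this increase. Hist1h2ae had 141 and 114 in the controls and 142 and 117 under DMDA-PatA (0.02 ± 0.45, adjusted p = 0.976). Hist1h4a had 5.89 and 1.81 in the controls and 6.31 and 4.87 under DMDA-PatA, although its 5' UTR had 358 and 326 transcriptome reads. Hist1h4h had 1.18 and 4.53 in the controls and 0.631 and 0 under DMDA-PatA on 508 and 413 transcriptome reads, and Hist1h3c had none in the controls and 0.631 and 0.812 under DMDA-PatA on 279 and 243 transcriptome reads.

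**Figure D5:**
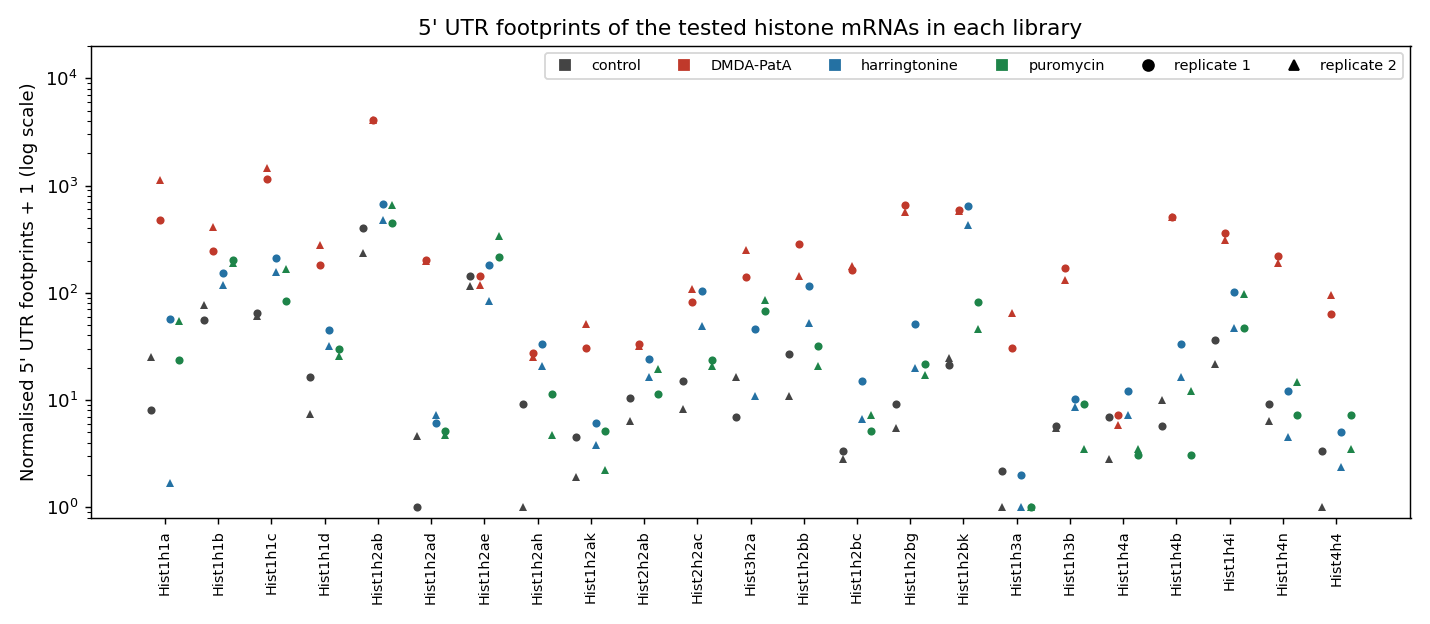
5' UTR footprints (normalized to spike-in reads, on a logarithmic axis of the value plus 1) of the 23 tested histone genes in each of the 8 footprint libraries, with circles for replicate 1 and triangles for replicate 2. DMDA-PatA points lie far above the controls in genes such as Hist1h1a and Hist1h4b and among them in Hist1h2ae.

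The 5' UTR share of 5' UTR and ORF reads puts both regions together. Over the 42 histone genes it was 0.453% and 0.403% in the controls, 24.9% and 17.8% under DMDA-PatA, 0.990% and 1.00% under harringtonine and 0.633% and 0.653% under puromycin. In other coding transcripts it was 4.16% and 4.42% in the controls, 40.0% and 40.9% under DMDA-PatA, 32.5% and 36.6% under harringtonine and 22.9% and 20.4% under puromycin. With harringtonine and puromycin the histone share was at most 1.00% while that of other transcripts exceeded 20%. The 5' UTR against ORF change was higher in 23 of 23 tested histone genes with DMDA-PatA, near the share of all tested (93.5%) and with the same limit for the 7 genes named above, in 11 with harringtonine (95.4%) and in 5 with puromycin (78.5%), and lower in 2 with harringtonine (0.139%) and in none with DMDA-PatA (0.139%) or puromycin (0.0616%). The puromycin count of 5 became 2 without control replicate 2 and 3 without puromycin replicate 2, and the harringtonine count of 2 became 1 without control replicate 2. Median log2 changes were 6.10, 1.24 and 0.35 in the histone genes and 4.34, 3.98 and 2.52 over all 6497 tested. The largest with DMDA-PatA was Hist1h1a (8.73 ± 0.68, adjusted p = 2.24e-10) and the smallest Hist1h2ae (1.68 ± 0.40, adjusted p = 0.000534). The 2 that were lower with harringtonine were Hist1h2ab (-1.39 ± 0.40, adjusted p = 0.00237) and Hist1h2ae (-1.81 ± 0.40, adjusted p = 0.000222).

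Footprints on the 3' UTR, downstream of the stop codon, were few. Both puromycin libraries lay above both controls there in 26 of 58 histone genes and below both in 3, where 9.22% and 17.5% of all coding transcripts with a 3' UTR footprint did so.

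Replacement histones, which are made throughout the cell cycle mostly from polyadenylated mRNAs, gave a comparison with proteins of the same families. Of 11 listed genes 9 could be tested. With DMDA-PatA all 9 fell (median log2 fold change -4.61, 99.3% of all tested ORFs). With harringtonine 7 fell (median -3.14, 92.9% of all) and with puromycin 6 fell (median -1.37, 90.1% of all), and none rose. With TMM factors H2afx (2.51), H2afj (2.54), H2afv (1.72), H1f0 (1.35), H1fx (1.06), Cenpa (0.84) and H3f3b (0.80) were higher with puromycin, and H2afy2 (-1.43) was lower. With harringtonine H2afx (2.78), H2afj (3.18) and Cenpa (1.27) were higher on that scale, and H2afy, H2afy2, H3f3b and H1f0 were lower. With DMDA-PatA H2afv (0.74) was higher, and H2afy, H2afy2 and H1f0 were lower. H3f3b, which encodes histone H3.3, had 854 and 1043 control footprints, 30.9 and 47.1 under DMDA-PatA, 71.0 and 35.7 under harringtonine and 318 and 292 under puromycin. Its log2 fold changes were -4.61 ± 0.50 (adjusted p = 2.11e-19), -4.16 ± 0.49 (adjusted p = 2.88e-16) and -1.64 ± 0.44 (adjusted p = 0.000294). H3f3a and H2afz were listed at 0 in every footprint and transcriptome library. With multi-matching reads left out, these values do not show whether the 2 genes were expressed.

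H2afx, the H2A variant that is phosphorylated at DNA breaks, has an mRNA that can end in a stem-loop or a poly(A) tail. It had 6410 and 5271 control footprints, 369 and 341 under DMDA-PatA, 8533 and 3265 under harringtonine and 5707 and 6445 under puromycin. Its harringtonine and puromycin values overlapped the controls (0.01 ± 0.45, adjusted p = 0.976, and 0.06 ± 0.45, adjusted p = 0.904), while it fell by 4.04 with DMDA-PatA (SE 0.52, adjusted p = 8.55e-15), below the lowest histone gene at -3.90. H2afj had 55.4 and 46.2 control footprints, 19.3 and 86.8 under harringtonine and 60.0 and 49.7 under puromycin, and its changes of 0.10 with each (adjusted p = 0.831 and 0.83) did not pass the test. Without harringtonine replicate 1 it was called higher with harringtonine (0.78).

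Factors that process and control histone mRNAs were next compared. Of 19 genes in the list 17 were listed and tested, and of these 17 fell with DMDA-PatA (median -4.69), 15 with harringtonine (median -2.52) and 16 with puromycin (median -2.27), and none rose. These counts are near the shares of 99.3%, 92.9% and 90.1% of all tested ORFs, whose medians were -4.32, -2.97 and -2.48. Slbp had 1437 and 1222 control footprints, 88.4 and 140 under DMDA-PatA, 793 and 463 under harringtonine and 395 and 496 under puromycin. Its log2 fold changes were -3.54 ± 0.48 (adjusted p = 3.92e-13), -1.08 ± 0.44 (adjusted p = 0.0152) and -1.57 ± 0.45 (adjusted p = 0.000602). The harringtonine call was lost without control replicate 1 (-0.96), control replicate 2 (-1.19) or harringtonine replicate 2 (-0.74). With TMM factors Slbp was higher with all 3 drugs (0.67, 1.76 and 0.88), and so were Casp8ap2 (1.90) with DMDA-PatA and H3f3b (0.80) with puromycin, while H2afx with DMDA-PatA, at 0.25, did not pass the test (adjusted p = 0.431). The smallest DMDA-PatA decrease in this list was that of Casp8ap2 (-2.31 ± 0.47, adjusted p = 1.12e-06) and the largest that of the exonuclease gene Eri1, from 788 and 777 to 8.21 and 6.49 (-6.70 ± 0.57, adjusted p = 2.52e-29). Cpsf2, a subunit of the cleavage factor, fell most with harringtonine, from 2176 and 2002 to 57.8 and 30.8 (-5.57 ± 0.54, adjusted p = 5.26e-23), and Npat, the histone gene activator, most with puromycin, from 951 and 852 to 57.9 and 47.3 (-4.11 ± 0.50, adjusted p = 3.52e-15). Of 13 listed histone chaperones, 13 fell with DMDA-PatA, 11 with harringtonine and also 11 with puromycin, with medians of -4.31, -3.01 and -2.07.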

How the data were processed

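Per the labels and the study's methods, SOLiD reads were aligned to mm10 with LifeScope, multi-matching reads were left out, matches of 26 to 36 nt were kept, and the authors deposited footprint and transcriptome signal per region, scaled by DESeq2 size factors from spike-in RNA (footprints) or between replicates (transcriptome). The submitters' processing notes also name Picard 1.38. All values were whole multiples of 1 read (100% within 0.001 reads), so reads were recovered. In the footprint libraries 1 read was worth 0.631 to 2.07. Recovered reads were tested on the authors' size factors with edgeR 4.0.16 (quasi-likelihood, Benjamini-Hochberg over all features tested, adjusted p of 0.05) and limma 3.58.1 in R 4.3.3, with the 4 conditions in 1 fit, no covariate and a minimum of 10 reads in 2 or more libraries. The tests had been planned for counts. The 5' UTR against ORF test had the library as a block, and its interaction is between region and drug. Relative tests and the comparison of footprints with transcriptome reads used TMM factors. DESeq2 1.42.0, limma on log2 values and other settings were alternatives. With a library left out, the lone library was assumed to vary like the others.

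Standard errors are the log2 fold change divided by the square root of the F statistic. Transcripts were matched to GENCODE M21 (15074 of 15269 listed). Histone gene sequences came from the RefSeq genome GRCm38.p6 and those of other transcripts from GENCODE M21. Coordinates are those of the M21 transcript, whose ends can differ from the listed 5' UTR lengths. Python 3.11.15 with numpy 2.4.6, pandas 2.3.3 and matplotlib 3.10.9 was used. The test was checked on simulated counts. Named genes were the 3 per class with the most control ORF footprints, the 2 with the highest and the 2 with the lowest change per drug that moved alike in both pairs, and Slbp, H2afz, H3f3a, H3f3b, H2afx and the extremes of each list. Other genes were named after their values were seen. The histone set and the gene lists were chosen with earlier results of these data known. Replicates give p-values for the spread between 2 libraries, and read numbers cover counting error only.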

Additional observations from a re-analysis of the deposited data

Results flagged for a closer look

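Footprints on the 3' UTR were not tested in the report and were looked at because the puromycin libraries exceeded both controls there. The summed 3' UTR footprints of the 58 histone genes were 331 and 329 in the controls, 873 in puromycin replicate 1 and 1188 in puromycin replicate 2. They were 85.2 and 98.2 with DMDA-PatA and 247 and 137 with harringtonine. As a share of ORF and 3' UTR footprints the histone genes had 0.140% and 0.165% in the controls and 0.372% and 0.396% with puromycin, and other coding transcripts had 0.828% and 0.697% in the controls and 2.11% and 2.23% with puromycin. Both puromycin libraries lay above both controls in 26 of 58 histone genes and below both in 3, where 9.22% and 17.5% of all coding transcripts with a 3' UTR footprint did so. Hist1h1c, for example, had 18.9 and 19.9 in the controls and 105 and 147 with puromycin. The difference was not tested. With 2 libraries in each condition no sample could be examined for standing apart from its group.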

How the results depend on the processing

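Of the counts and medians, 477 alternative values kept their side or stayed within 1.5 times or 1 SD, and 88 did not. The cause of the changes was not tested, except that TMM factors centre all tested ORFs by construction. With TMM factors in place of the authors' size factors, ORF footprints were higher in 54 histone genes and lower in 0 with DMDA-PatA, higher in 50 and lower in 3 with harringtonine, and higher in 55 and lower in 0 with puromycin. They were higher in 7 with DMDA-PatA than with harringtonine, higher in 4 and lower in 22 with DMDA-PatA than with puromycin, and higher in 13 with harringtonine than with puromycin, and 5' UTR footprints rose with puromycin in 3. ORF log2 fold changes that changed sign with TMM factors were, with DMDA-PatA, Hist1h1a 1.04, Hist1h1b 1.17, Hist1h1d 2.00, Hist3h2a 2.12, Hist1h2ak 2.50, Hist1h2ab 2.98, Hist2h2bb 0.66, Hist1h2bk 2.05, Hist1h2bg 2.53, Hist1h3b 2.38, Hist1h3c 2.67, Hist1h3g 2.91, Hist1h4h 2.16, Hist1h4d 1.19, Hist1h4a 2.13, Hist1h2an 0.28, Hist1h2af 0.60, Hist2h2be 3.61, Hist1h2bn 3.44, Slbp 0.67, H2afx 0.25 and Casp8ap2 1.90. With harringtonine they were Hist1h1a 1.53, Hist1h1b 2.72, Hist3h2a 1.65, Hist2h2bb 1.22, Hist1h4d 0.61, Hist1h4a 2.78 and Slbp 1.76, and with puromycin Hist1h1a 1.88, Hist2h2bb 1.54, Hist1h3b 1.85, Hist1h4d 1.54, Hist1h4a 2.37, Hist1h2an 1.28, Slbp 0.88 and H3f3b 0.80.

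At equal total ORF reads per library the median fold inhibition with DMDA-PatA, harringtonine and puromycin was 0.194, 0.141 and 0.137 over all histone genes, 0.347, 0.191 and 0.184 in H1, 0.164, 0.0699 and 0.107 in H2A, 0.18, 0.142 and 0.115 in H2B, 0.16, 0.104 and 0.161 in H3, and 0.208, 0.203 and 0.194 in H4. In genes with over 50% unique windows it was 1.65 with harringtonine over all, 2.48 in H2A, 1.96 in H2B and 1.64 in H4, and in H2B, where it rests on 2 genes, 10.8 with DMDA-PatA and 1.21 with puromycin. No H3 gene had over 50% unique windows. Which size factors belong to DMDA-PatA and which to harringtonine is in doubt. When these libraries swapped their size factors, the harringtonine medians were 1.12 over all, 1.5 in H1, 0.55 in H2A and 1.59 in H4, 24 ORFs rose with puromycin, 8 were higher and 24 lower with harringtonine than with puromycin, 2 5' UTRs rose with puromycin, and harringtonine changes were -0.16 in Hist1h2bk, -0.11 in Hist1h2bg and -0.36 in H2afx.

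Same-numbered libraries did not deviate together (correlations of deviations from -0.0192 to 0.0568 over 12499 tested ORFs), so the numbers were not taken as pairs. With the replicate number as a block, 9 ORFs rose and 5 fell with puromycin and 2 were higher with harringtonine than with puromycin, harringtonine changes were -0.06 in H2afx and -0.07 in H2afj, and no other count left the 1.5 fold range. The region test already holds the replicate number in its library block. With limma on log2(value + 1) or log2(value + 5), 2 5' UTRs rose with puromycin, and harringtonine changes were -0.14 and -0.14 in H2afx and -0.29 and -0.24 in H2afj. With no filter on low counts 1 gene had a lower 5' UTR against ORF change with puromycin.

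With each library left out in turn, ORF footprints rose in 7 to 21 histone genes with harringtonine, rose in 3 to 20 and fell in 1 to 11 with puromycin, were higher in 1 to 3 with DMDA-PatA than with harringtonine, and were higher in 1 to 7 and lower in 4 to 21 with harringtonine than with puromycin. 5' UTR footprints rose in 2 to 13 and fell in 0 to 1 with harringtonine and rose in 0 to 2 with puromycin. The 5' UTR against ORF change was lower in 1 to 2 with harringtonine and higher in 2 to 6 with puromycin, and footprints relative to transcriptome reads were lower in 1 to 2. DMDA-PatA medians of fold inhibition ran from 2.82 to 5.31 in H2A and 2.89 to 5.53 in H2B. Harringtonine medians ran from 0.727 to 1.25 over all, 1.1 to 1.52 in H1, 0.37 to 0.687 in H2A, 0.625 to 1.47 in H2B, 0.487 to 1.03 in H3 and 1.23 to 1.45 in H4. Changes that turned sign ran, with harringtonine, from -0.38 to 0.04 in Hist1h1b, -0.32 to 0.46 in Hist1h2bk, -0.50 to 0.74 in Hist1h2bg, -0.19 to 1.18 in Hist1h3b, -0.04 to 0.66 in Hist1h3c, -0.36 to 1.06 in Hist1h3g, -0.45 to 0.18 in Hist1h4a, -0.84 to 0.55 in H2afx and -1.39 to 0.78 in H2afj. With puromycin they ran from -0.05 to 2.12 in Hist1h2ab, -0.38 to 0.26 in Hist1h4a, -0.08 to 0.21 in H2afx and -0.03 to 0.24 in H2afj, and with DMDA-PatA from -2.01 to 0.17 in Hist1h2ab. Precision rests on 2 libraries a condition, and many 5' UTR values rest on under 10 reads.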
